A study of Mus musculus with 8 samples.

Results

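Cyclic AMP (cAMP) synthesis and its direct effectors were followed in the mouse hippocampus through 10 genes, taken by symbol from the 37310 genes of the count table. They comprise the adenylyl cyclase genes Adcy1, Adcy2, Adcy3, Adcy5, Adcy8 and Adcy9, the exchange factor genes Rapgef3 and Rapgef4, and the protein kinase A catalytic subunit genes Prkaca and Prkacb. All 10 matched a row, and all 10 passed the filter on low counts that 17913 genes passed. The 10 were chosen by their role in the pathway and with their fold changes and adjusted p in these same libraries already known, so their differences between genotypes are given as a description without a test. RNA came from the hippocampus of 4 heterozygous knockouts of Nr2f1, a nuclear receptor gene (Nr2f1 het), and of 4 wild-type (WT) mice, labelled as biological replicates. All were untreated B6.129 F1-hybrid animals, labelled male and 3 months old. How the Nr2f1 allele was made is not given in the sources used here. Levels are CPM, gene counts scaled to the TMM-normalised library size.

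Adenylyl cyclases make cAMP from ATP when the stimulatory G protein is active, and some isoforms also respond to calcium. The cAMP then releases the catalytic subunits of protein kinase A from their regulatory subunits, and it opens the Epac proteins, encoded by Rapgef3 and Rapgef4, which activate the small GTPase Rap. In the hippocampus this pathway is known for its part in late long-term potentiation and memory, above all through calcium-stimulated cyclases.

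Libraries held between 58717305 and 90043971 gene counts. Nr2f1, on chromosome 13, was at 28.5 to 33.5 CPM in heterozygotes and 49.5 to 54.1 CPM in WT, 60.1% of the WT level (edgeR adjusted p = 7.32e-05). Although all animals were labelled male, Xist lay between 463 and 601 CPM in all 8 libraries, and the 14 Y-linked genes had 3 counts in total. These counts contradict the labelled sex in all 8 libraries. The ratio of spike-in ERCC-00130 to ERCC-00002 was 1.2 to 1.28 in odd-numbered libraries of either genotype and 0.165 to 0.186 in the even-numbered, and key values are also given within each set. The summed level of 12 choroid plexus markers was 4122 to 4650 CPM in heterozygotes and 82.6 to 2111 CPM in WT. Most of that sum was Ttr, at 3698 to 4201 CPM in heterozygotes and 44.9 to 1884 CPM in WT. Markers of hippocampal pyramidal and granule neurons, among them Slc17a7, Camk2a, Wfs1 and Prox1, were all detected in every library, and their summed level, most of it Camk2a, was 7606 to 8717 CPM in heterozygotes and 8067 to 9025 CPM in WT. Of these 11 markers 1 passed as lower in heterozygotes, Wfs1, a marker of CA1 pyramidal neurons. It was at 272 to 299.5 CPM in heterozygotes and 308 to 365 CPM in WT without overlap (log2 fold change -0.24, edgeR adjusted p = 0.0362). None of the other markers on the list passed. Among them, Fibcd1 was at 151 to 192 CPM in heterozygotes and 145 to 186 CPM in WT. Spink8 was at 5 to 7.61 CPM in heterozygotes and 5.54 to 7.88 CPM in WT. A change in the number of CA1 neurons was not tested. The part of Wfs1-expressing cells in the values of the 10 genes was not tested.

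The promoter windows of Rapgef4 and Adcy5, whose ranges did not overlap between genotypes, of Adcy1, the most abundant cyclase, and of Prkaca, the steadiest gene, are taken from RefSeq on GRCm38.p6, each running from 250 bases before to 50 bases after an annotated transcription start. Capitals mark AGGTCA, the core motif that COUP-TF nuclear receptors such as Nr2f1 bind as repeats, and TGACG, the core of the cAMP response element, on either strand (read as TGACCT and CGTCA on the reverse). The windows are chr2:71980965-71981264 for Rapgef4, chr11:7063183-7063482 for Adcy1, chr16:35154614-35154913 for Adcy5 and chr8:83972728-83973027 for Prkaca, all on the plus strand.
Rapgef4: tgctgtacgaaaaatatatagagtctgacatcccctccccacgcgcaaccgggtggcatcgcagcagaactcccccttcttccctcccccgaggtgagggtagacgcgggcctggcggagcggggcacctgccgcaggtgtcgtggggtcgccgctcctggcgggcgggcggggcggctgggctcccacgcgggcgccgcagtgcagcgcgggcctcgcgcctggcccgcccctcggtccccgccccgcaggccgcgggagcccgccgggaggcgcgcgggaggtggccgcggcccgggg
Adcy1: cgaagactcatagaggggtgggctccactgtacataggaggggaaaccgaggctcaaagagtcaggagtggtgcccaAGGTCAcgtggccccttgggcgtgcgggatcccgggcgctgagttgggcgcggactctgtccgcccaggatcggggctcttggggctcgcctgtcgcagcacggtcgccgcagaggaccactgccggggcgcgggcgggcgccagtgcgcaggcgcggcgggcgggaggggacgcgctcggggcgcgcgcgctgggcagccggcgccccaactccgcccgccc
Adcy5: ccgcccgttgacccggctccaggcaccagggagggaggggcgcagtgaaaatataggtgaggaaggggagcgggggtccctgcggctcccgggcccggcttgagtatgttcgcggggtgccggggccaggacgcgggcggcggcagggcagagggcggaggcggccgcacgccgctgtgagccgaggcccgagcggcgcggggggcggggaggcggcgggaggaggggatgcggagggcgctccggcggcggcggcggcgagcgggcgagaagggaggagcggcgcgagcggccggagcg
Prkaca: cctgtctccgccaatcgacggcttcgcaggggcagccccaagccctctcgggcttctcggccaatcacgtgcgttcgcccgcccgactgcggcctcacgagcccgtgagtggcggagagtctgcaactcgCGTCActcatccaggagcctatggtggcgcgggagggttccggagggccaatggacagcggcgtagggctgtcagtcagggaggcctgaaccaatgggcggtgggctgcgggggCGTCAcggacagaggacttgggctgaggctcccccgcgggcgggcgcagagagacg
RefSeq windows were matched for 9 of the 10 genes, 13 windows in all, since some genes have several starts. Searched on both strands, AGGTCA was in 1 of the 13 windows, that of Adcy1 at position -173 from the start, and in 16.3% of all 32851 mouse windows. TGACG was in 4 of the 13, those of Adcy9, Prkaca, Prkacb and Rapgef3, and in 20.8% of all windows. The full palindrome TGACGTCA, which contains TGACG, was in 0 of the 13 and in 1.79% of all windows. The 13 windows had a median GC content of 69.7% and a median observed-to-expected CpG ratio of 0.859, where all windows had medians of 52.7% and 0.384.

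Per kilobase of exon, Adcy1 was the most abundant of the 10 genes and Adcy8 the least. Adcy1, a cyclase stimulated by calcium and calmodulin, was at 124 ± 5.21 CPM per kilobase in heterozygotes and 137 ± 11.8 in WT (SD, n = 4 each). Prkaca, the widely expressed alpha catalytic subunit of protein kinase A, followed at 91.1 ± 2.37 in heterozygotes and 91.3 ± 2.74 in WT on the same scale (SD, n = 4 each). Rapgef4, which encodes the neuronal Epac protein Epac2, came next with 58.7 ± 2.69 in heterozygotes and 66.5 ± 1.25 in WT (SD, n = 4 each). On this scale these 3 genes did not overlap each other in range over the 8 libraries. The ranges of Prkacb and Adcy2 overlapped, with a ratio of means of 1.01 and Prkacb the higher in 3 of 8 libraries. The ranges of Adcy9 and Adcy5 also overlapped, with a ratio of 1.02, and Adcy9 was the higher in 5 of 8 libraries. Below them, Adcy3 lay between 7.13 and 8.13 CPM per kilobase over all libraries, Rapgef3 between 5.47 and 7.04, and Adcy8 between 2.39 and 3.98. With the longest transcript as length in place of all exons, Rapgef4 (89.3 to 108) and Prkaca (96.3 to 104) exchanged places. So did Rapgef3 (8.25 to 10.6) and Adcy3 (7.93 to 9.03). With that length the ranges of Rapgef4 and Prkaca overlapped, as did those of Rapgef3 and Adcy3.

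**Figure D1:**
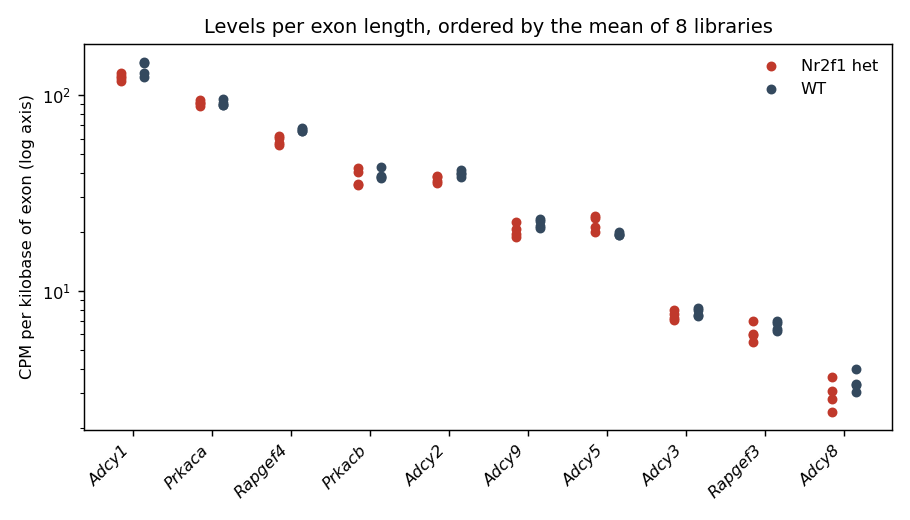
Level of each gene in CPM per kilobase of exon (log axis) in each library, Nr2f1 het in red left of WT in dark blue, ordered by the mean of 8 libraries. Adcy1 lies at 118 to 149 and Adcy8 at 2.39 to 3.98, and within a gene the 2 genotypes sit close together.

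Within each enzyme family a single gene held most of the RNA. Adcy1 made up 53.2 to 55.4% of the length-scaled RNA of the 10 adenylyl cyclase genes in heterozygotes and 54.7 to 58.2% in WT. Adcy2, a cyclase that G protein beta-gamma subunits can stimulate, gave 15.6 to 17.4% in heterozygotes and 16 to 16.8% in WT. Adcy9, a broadly expressed cyclase, gave 8.49 to 9.52% in heterozygotes and 8.52 to 9.6% in WT. Adcy5, which calcium inhibits and which is best known as the main cyclase of the striatum, gave 8.78 to 10.6% in heterozygotes and 7.56 to 8.48% in WT. Adcy3, known from olfactory and neuronal cilia, and Adcy8, the other strongly calcium-stimulated isoform, stayed at or below 3.59% and 1.75% in every library. Of the Epac pair, Rapgef4 held 89.8 to 91.1% in heterozygotes and 90.5 to 91.3% in WT, so Rapgef3 (Epac1) was the minor form in all 8. Of the catalytic subunits, Prkaca held 68.3 to 72.8% in heterozygotes and 67.5 to 71.2% in WT. That last share depends on the length used, and was 52.9 to 59.2% over all libraries with the longest transcripts.

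Rapgef4 was lower in heterozygotes than in WT in every library. It was at 373, 401, 412 and 380.4 CPM in heterozygote libraries 1 to 4, against 449, 453, 436 and 439 CPM in WT libraries 1 to 4. The highest heterozygote library lay below the lowest WT library, as for 3.59% of all genes tested, and the WT libraries were close together, the coefficient of variation being 4.59% in heterozygotes and 1.88% in WT. The heterozygote mean was 88.2% of the WT level, a log2 fold change of -0.18 ± 0.0366 (SE). It was -0.16 ± 0.06 (SE) among odd-numbered and -0.19 ± 0.0483 (SE) among even-numbered libraries. Rapgef4 was the only 1 of the 10 genes below an edgeR adjusted p of 0.05, where 2.99% of all genes tested were (0.368% as lower), and since the gene was chosen with that call known, nothing is read from the count. The call was lost when heterozygote library 1 or 4, or WT library 1, 2 or 3, was left out, with log2 fold changes of -0.15 to -0.21 over all 8 such omissions. Rapgef4 was at -0.084 with spike-in scaling, under which the median of all genes was 0.091. It was called in 7 of 20 processing alternatives and lower in all 20. All 20 reuse the libraries in which its value was known when it was chosen, so this tally adds no independent evidence. Rapgef3, the other Epac gene, was at 34.7, 37.9, 44.6 and 38 CPM in heterozygote libraries and 40.6, 44.5, 39.7 and 43.5 CPM in WT libraries. Its ranges overlapped, since heterozygote library 3 was above all WT libraries, and its log2 fold change was -0.12 ± 0.0693 (SE). Among odd-numbered libraries Rapgef3 differed by -0.0040 ± 0.111 (SE) and among even-numbered ones by -0.21 ± 0.0518 (SE) on the log2 scale.

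**Figure D2:**
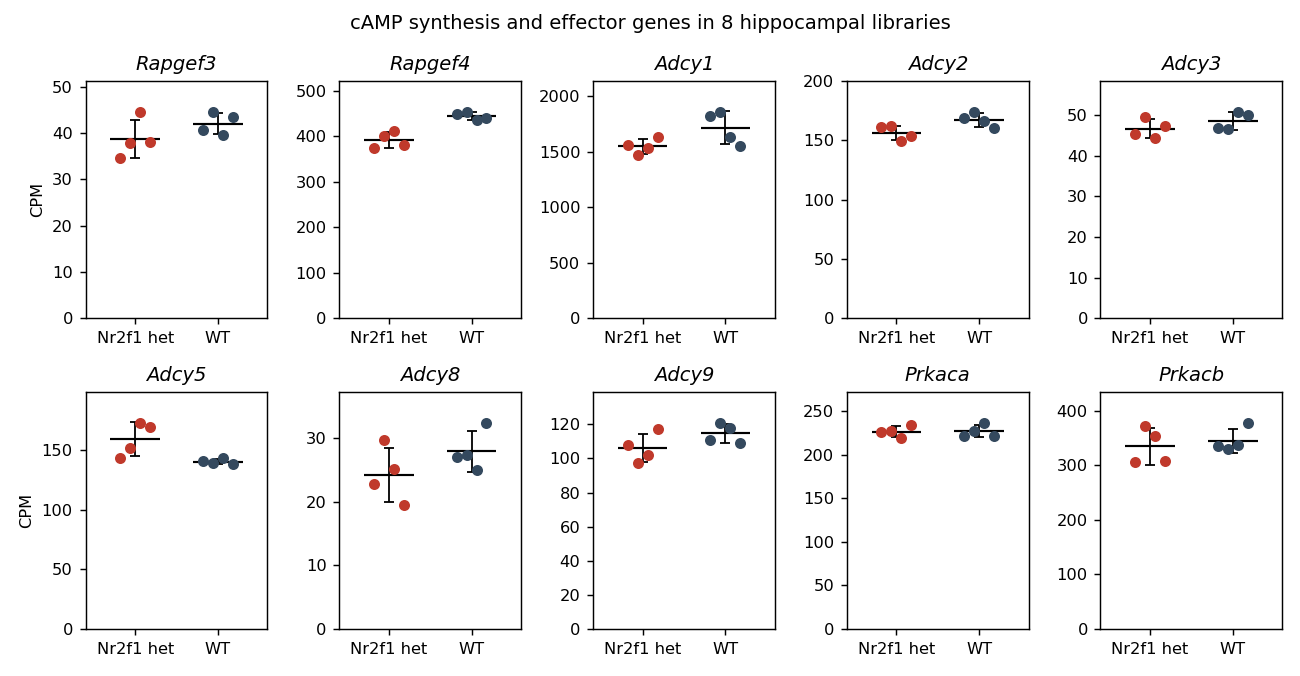
CPM of the 10 genes in each library, Nr2f1 het in red left of WT in dark blue, with the mean (line) and SD (bar) of 4 libraries and each axis from 0. Rapgef4 is lower and Adcy5 higher in heterozygotes without overlap, and the other 8 genes overlap.

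Adcy5 was the only 1 of the 10 genes with a higher mean in heterozygotes. It was at 142.7, 152, 173 and 169.6 CPM in heterozygote libraries 1 to 4, against 141, 139, 142.6 and 138 CPM in WT libraries 1 to 4. The heterozygote range lay above the WT range, as for 6.99% of all genes tested (10.6% did not overlap in either direction), but heterozygote library 1 exceeded the highest WT library by little, and the coefficient of variation was 9.02% in heterozygotes and 1.5% in WT. Adcy5 was 1.14-fold the WT level, a log2 fold change of 0.18 ± 0.0542 (SE), which was 0.16 ± 0.0853 (SE) among odd-numbered and 0.21 ± 0.058 (SE) among even-numbered libraries. Summed levels of markers of the striatum, the thalamus and meningeal fibroblasts were also above those of WT in every heterozygote library. So were those of the choroid plexus and ependymal markers. At an edgeR adjusted p of 0.05, 0 of 12 choroid plexus markers and 4 of 6 ependymal markers were higher. The summed level of 9 striatal markers was 115 to 198 CPM in heterozygotes and 88.1 to 102 CPM in WT, with none of the 9 at 0 in any library and 2 of the 9 higher at an edgeR adjusted p of 0.05. Of 7 thalamic markers, 2 were higher by the same test, and their summed level was 201 to 246 CPM in heterozygotes and 155 to 175 CPM in WT. Of 6 meningeal fibroblast markers, none passed that test, and their summed level was 311 to 365 CPM in heterozygotes and 86.9 to 225 CPM in WT. Most of that sum was Igf2, at 229 to 271 CPM in heterozygotes and 43.1 to 156 CPM in WT. Of the 6, Col1a1 and Lum overlapped between genotypes and the others did not. The part of the thalamic and meningeal markers in the level of Adcy5 was not tested. The score of the striatal markers, their mean log2 CPM centred over the 8 libraries, was -0.03, 0.18, 0.72 and 0.81 in heterozygote libraries 1 to 4 and -0.45, -0.39, -0.60 and -0.24 in WT libraries 1 to 4. In heterozygotes the libraries with high Adcy5 were those with high scores, whereas among WT libraries the order of Adcy5 was the reverse of that of the score. With the striatal score as a covariate the log2 fold change of Adcy5 was -0.042 ± 0.0714 (SE). Of the variance of the striatal score 71.2% lay between the genotypes, against 58% for the choroid plexus and 77.4% for the ependymal score. Score and genotype therefore cannot be told apart in these fits. In bulk tissue, fewer cells of a type and less RNA per cell cannot be told apart either.

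Adcy1 had a lower mean in heterozygotes, but its ranges overlapped. It was at 1561, 1474, 1535 and 1632 CPM in heterozygote libraries 1 to 4, against 1823, 1859.9, 1633 and 1553 CPM in WT libraries 1 to 4. WT library 4 lay within the heterozygote range, and the log2 fold change was -0.15 ± 0.0567 (SE). Within each genotype, Adcy1 followed the order of Prox1, a transcription factor gene of dentate granule cells, picked with Dsp after the values were seen. Prox1 was at 58.3, 52.3, 54.1 and 62.3 CPM in heterozygote libraries 1 to 4, against 62.7, 65, 57.1 and 48.3 CPM in WT libraries 1 to 4. Dsp, another granule cell marker, was at 82, 68, 74.4 and 90.6 CPM in heterozygotes, against 87, 87.2, 80.6 and 59 CPM in WT, again in the same order within each genotype. Dock10 had that order in WT and C1ql2 had it in heterozygotes, but neither had it in both. Between genotypes the means were close, at 56.8 CPM in heterozygotes and 58.3 CPM in WT for Prox1. For Dsp they were 78.7 CPM in heterozygotes and 78.5 CPM in WT, where Adcy1 was at 1550.4 CPM in heterozygotes and 1717 CPM in WT. The part of these markers in the level of Adcy1 was not tested.

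**Figure D3:**
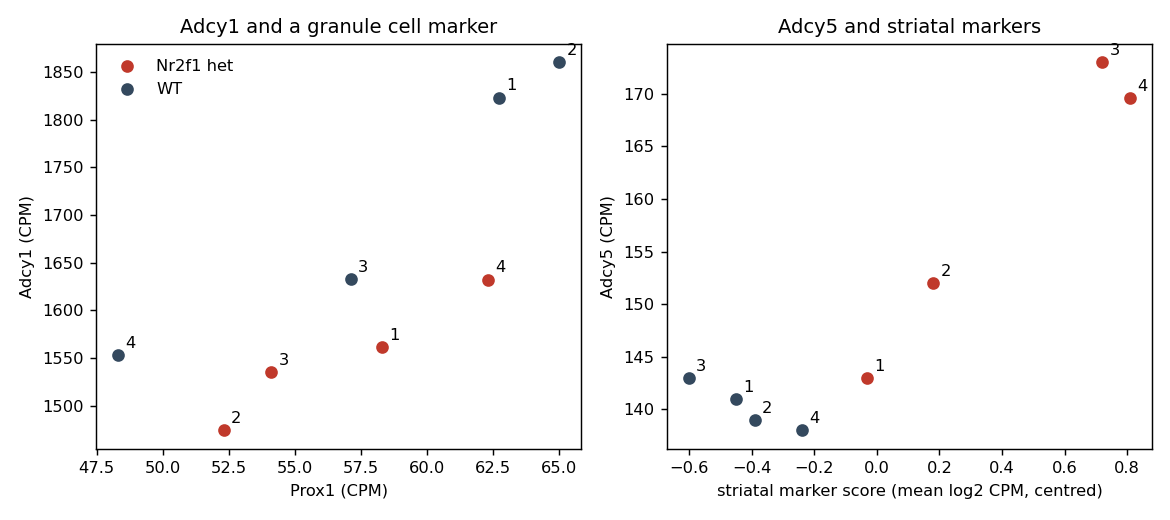
Left, Adcy1 against the granule cell marker Prox1, both in CPM. Right, Adcy5 in CPM against the striatal marker score, with library numbers beside the points, Nr2f1 het in red and WT in dark blue. Heterozygote libraries 3 and 4 have both the highest striatal scores (0.72 and 0.81) and the highest Adcy5. Adcy1 rises with Prox1 inside each genotype, but Prox1 was picked after the values were seen. The granule cell markers C1ql2 and Dock10 do not keep that order in both genotypes.

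The other cyclases overlapped between genotypes. Adcy2, which lies on chromosome 13 as Nr2f1 does, was at 161, 162, 149.6 and 154 CPM in heterozygote libraries and 169, 174, 166 and 160.2 CPM in WT libraries. The log2 fold change of Adcy2 was -0.093 ± 0.037 (SE). Adcy9 was at 108, 97.6, 102 and 117 CPM in heterozygote libraries and 111, 121, 118 and 109 CPM in WT libraries, a log2 fold change of -0.12 ± 0.0544 (SE). Within a genotype Adcy9 and Adcy1 shared their extremes: library 4 was the highest and library 2 the lowest of the heterozygotes, and library 2 the highest and library 4 the lowest of WT. Adcy3 was at 45.3, 49.6, 44.5 and 47.3 CPM in heterozygote libraries and 46.9, 46.6, 50.8 and 50.1 CPM in WT libraries, with a log2 fold change of -0.058 ± 0.0448 (SE). Adcy8 was the most variable of the 10 genes, at 22.8, 29.6, 25.1 and 19.5 CPM in heterozygote libraries and 27, 27.3, 24.9 and 32.4 CPM in WT libraries. Its log2 fold change of -0.20 ± 0.131 (SE) was the most negative of the 10, with an error more than 3 times that of Rapgef4.

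The catalytic subunit genes showed the smallest differences. Prkaca was at 226, 228, 219 and 234 CPM in heterozygote libraries and 222, 228, 237 and 222 CPM in WT libraries, a log2 fold change of -0.0040 ± 0.0335 (SE). It was the steadiest of the 10 genes. Prkacb, the beta catalytic subunit that is enriched in brain, was at 306, 372, 354 and 307 CPM in heterozygote libraries and 335, 329.8, 337 and 378 CPM in WT libraries, a log2 fold change of -0.044 ± 0.0698 (SE). Prkacb and Adcy8 shared their high libraries, heterozygote 2 and WT 4, which are the low libraries of Adcy1 and Adcy9. The pooled SD within genotypes, on the log2 scale, ran from 0.0403 for Prkaca to 0.212 for Adcy8, with a median over the 10 genes of 0.0937. Over the 10046 tested genes with a mean of at least 10 CPM the median was 0.0637.

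By sign, 9 of the 10 fitted values were below 0, where 52.1% of all genes tested were. Their median log2 fold change was -0.10, where that of all genes was -0.0056. Since the 10 were chosen with these values known, nothing is read from that count or median. Of the 4 cyclase genes outside the 10, 2 were above 0 and 2 below, with a median of 0.01. With libraries scaled to the spike-ins, 5 of 10 were below 0, with a median of -0.0050 where that of all genes was 0.091. That scaling raised all genes together, and the members' median relative to that of all genes was -0.096 with it and -0.099 without it. Adcy2, Adcy3, Prkaca and Prkacb had positive values with spike-in scaling (0.005, 0.04, 0.095 and 0.053). Which of the 2 scalings is nearer the true levels was not tested. Over 20 processing alternatives the sign was kept in 12 for Prkaca, 17 for Prkacb, 18 each for Adcy2 and Adcy3 and 19 for Adcy5, and in all 20 for the other 5 genes. These alternatives reuse the same libraries and are not independent of each other. Since the kit does not mark strand, reads of overlapping genes on the other strand cannot be told apart from those of Adcy3 (Cenpo), Rapgef3 (Rapgef3os1 and Rapgef3os2), Rapgef4 (Rapgef4os2) and Adcy2 (Gm35161). Cenpo, which shares 1380 bp of exon with Adcy3, had 2133 counts over 8 libraries, where Adcy3 had 30605. Rapgef4os2 had 170 counts, where Rapgef4 had 269300.

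**Figure D4:**
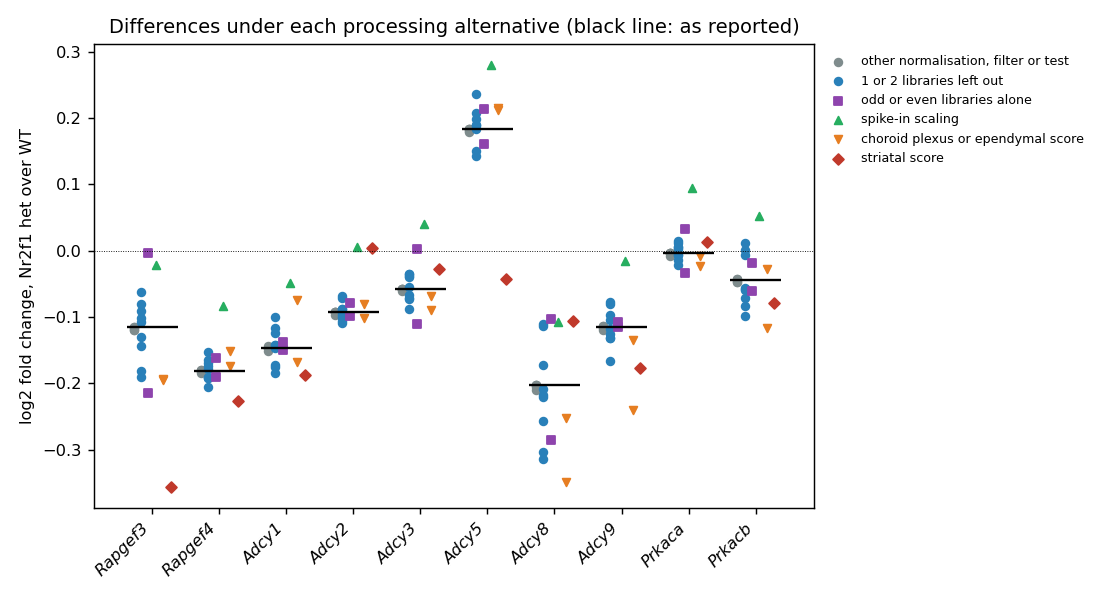
Log2 fold change of each of the 10 genes, Nr2f1 het over WT, under each processing alternative (symbols) and as reported (black line). Spike-in scaling shifts all 10 upward, and Adcy5 moves from 0.18 to -0.042 with the striatal score as a covariate. With the choroid plexus and ependymal scores Adcy5 is at 0.213 and 0.216.

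Most other genes of the cAMP pathway did not pass the test. Of 121 genes in 10 lists, 120 were in the table and 118 were tested. At an edgeR adjusted p of 0.05, 2 rose and 2 fell, where 2.62% of all genes tested rose and 0.368% fell. With spike-in scaling 5 were higher and 0 lower, and over all genes 1282 were higher and 14 lower, against 469 and 66 with TMM. An unadjusted edgeR p under 0.05 was reached by 21 of the 118, where 17.2% of all genes tested reached it. Their median log2 fold change was -0.030, where that of all genes was -0.0056.

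Among receptors that couple to the stimulatory G protein, 1 of 21 rose and none fell. Glp1r, the receptor gene for glucagon-like peptide 1, was at 3.01, 2.26, 2.28 and 3.03 CPM in heterozygote libraries and 1.69, 1.79, 1.5 and 1.45 CPM in WT libraries. The groups did not overlap, and Glp1r rose 1.63-fold (log2 fold change 0.70 ± 0.146 SE, edgeR adjusted p = 0.0248). The call was lost without heterozygote library 1 or 4 or WT library 1 or 3. Among 7 G protein alpha subunit genes none passed with TMM. Gnaz, an inhibitory subunit gene, was at 79.6 ± 2.41 CPM in heterozygotes and 86.3 ± 2.77 CPM in WT (SD, n = 4 each; edgeR adjusted p = 0.107), and Gnai2 at 177 ± 4.36 CPM in heterozygotes and 167 ± 4.19 CPM in WT (SD, n = 4 each; edgeR adjusted p = 0.19). With spike-in scaling Gnai2 passed (log2 fold change 0.18, edgeR adjusted p = 0.0469). None of the other 4 cyclase genes passed with TMM, and Adcy6 did with spike-in scaling (log2 fold change 0.20, edgeR adjusted p = 0.0197). Adcy6, the calcium-inhibited relative of Adcy5, was at 75.5 ± 3.13 CPM in heterozygotes and 70.4 ± 1.68 CPM in WT (SD, n = 4 each; edgeR adjusted p = 0.175), and Adcy4 at 3.99 ± 0.297 CPM in heterozygotes and 3.82 ± 0.357 CPM in WT (SD, n = 4 each; edgeR adjusted p = 0.819).

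The list of protein kinase A regulatory subunits and inhibitors and that of anchoring proteins each held 1 gene that passed as lower. They held 7 and 13 genes, and 0.368% of all genes tested passed as lower. Nothing is read about either list from 1 gene. Pkia, which encodes a peptide inhibitor of the catalytic subunits, was at 164, 159, 160.2 and 169 CPM in heterozygote libraries and 186, 174, 184 and 181 CPM in WT libraries. All heterozygote values lay below all WT values, and Pkia fell to 0.898 of WT (log2 fold change -0.15 ± 0.0341 SE, edgeR adjusted p = 0.0316). It was the only 1 of 7 genes for regulatory subunits and inhibitors to pass. Among 13 A-kinase anchoring protein genes, which tether the kinase at its sites of action, Akap7 fell to 0.867 of WT. Akap7 was at 24.6, 27.4, 28 and 26.3 CPM in heterozygote libraries and 32.5, 29.9, 30.5 and 30 CPM in WT libraries, without overlap (log2 fold change -0.21 ± 0.0487 SE, edgeR adjusted p = 0.0419). The call of Pkia was lost without heterozygote library 1, 2 or 3 or WT library 1 or 3, and that of Akap7 without heterozygote library 1, 2 or 4 or WT library 1, 2 or 3. Both calls were also lost with spike-in scaling, where Pkia was at -0.054 (edgeR adjusted p = 0.578) and Akap7 at -0.11 (edgeR adjusted p = 0.248) on the log2 scale.

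Downstream of the Epac proteins, Plce1 rose. Plce1 encodes phospholipase C epsilon, an enzyme that Ras and Rap can activate, and it was at 22.9, 21.4, 24.9 and 24 CPM in heterozygote libraries and 15.9, 18.1, 19.3 and 18.2 CPM in WT libraries. The genotypes did not overlap, and the rise was 1.3-fold (log2 fold change 0.38 ± 0.0643 SE, edgeR adjusted p = 0.00971). It passed without each library in turn, and it did not pass among odd-numbered libraries (log2 fold change 0.45, edgeR adjusted p = 0.0546) or even-numbered ones (0.32, edgeR adjusted p = 0.161) alone. None of the other 18 genes of the Rap list passed. Of the 19, 16 had fitted values below 0, where 52.1% of all genes tested did. The median log2 fold change of the 19 was -0.053, where that of all genes was -0.0056. Spike-in scaling moved the median of all genes to 0.091, so nothing is read from that sign count.

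Lists for cAMP breakdown and for the nuclear response held no gene that passed. Of 15 cAMP phosphodiesterase genes tested, the lowest p values belonged to Pde4a, at 131 ± 5.18 CPM in heterozygotes and 140.4 ± 4.26 CPM in WT (SD, n = 4 each; edgeR adjusted p = 0.185), and Pde3b, at 14 ± 0.446 CPM in heterozygotes and 15.3 ± 0.704 CPM in WT (SD, n = 4 each; edgeR adjusted p = 0.247). Among 9 tested genes for other cAMP-binding proteins these were Hcn2, a pacemaker channel gene, at 95.7 ± 4.46 CPM in heterozygotes and 101 ± 3.6 CPM in WT (SD, n = 4 each; edgeR adjusted p = 0.323), and Hcn4 at 2.05 ± 0.631 CPM in heterozygotes and 1.58 ± 0.326 CPM in WT (SD, n = 4 each; edgeR adjusted p = 0.363). Among 10 CREB family and coactivator genes they were Crtc3, at 26.7 ± 0.775 CPM in heterozygotes and 24.9 ± 0.794 CPM in WT (SD, n = 4 each; edgeR adjusted p = 0.229), and Camk4, at 128 ± 3.58 CPM in heterozygotes and 134 ± 6.59 CPM in WT (SD, n = 4 each; edgeR adjusted p = 0.47). Of 13 genes that cAMP and CREB can induce, Inhba was at 4.67 ± 0.371 CPM in heterozygotes and 3.94 ± 0.219 CPM in WT (SD, n = 4 each; edgeR adjusted p = 0.185) and Sik1 at 17.4 ± 1.89 CPM in heterozygotes and 14.1 ± 3.03 CPM in WT (SD, n = 4 each; edgeR adjusted p = 0.328). Sik1 passed without WT library 4 (log2 fold change 0.47, edgeR adjusted p = 0.0146).

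**Figure D5:**
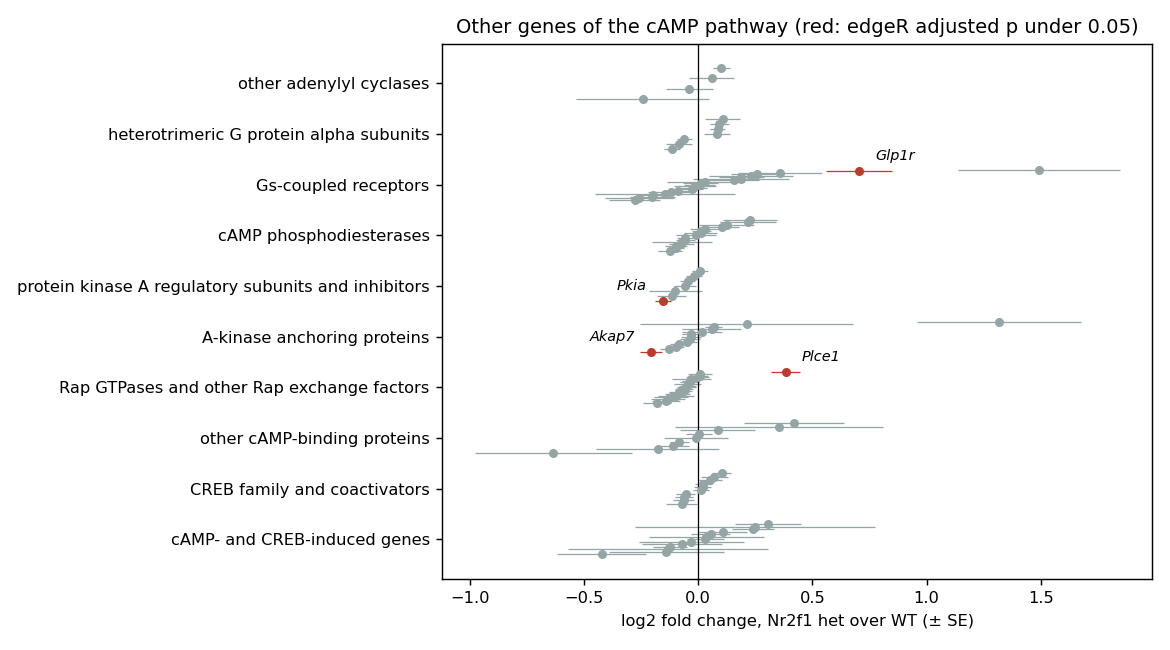
Log2 fold change (± SE), Nr2f1 het over WT, of the 118 tested genes of the cAMP pathway outside the 10, by list, with the genes under an edgeR adjusted p of 0.05 in red. Glp1r and Plce1 lie at 0.70 and 0.38, and Pkia and Akap7 at -0.15 and -0.21.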

How the data were processed

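Hippocampal RNA of 4 Nr2f1 heterozygotes and 4 WT mice was sequenced. Per the labels' protocols the amplified cDNA came from a NuGEN Ovation kit, which does not mark strand. The authors deposited raw read counts per Ensembl gene. Per the submitters' processing notes the tools were STAR 2.4.2a, HTSeq, FastQC and DESeq2, and the builds mm9 and NCBIM37. Roles, annotation and strand setting: not given in the sources used here. Symbols matched 32620 of 37310 genes through GENCODE vM21 on GRCm38, whose exon lengths set CPM per kilobase. Library sizes and tests exclude the 92 spike-in rows.

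Counts were filtered with filterByExpr (minimum 10, total 15), normalised by TMM and compared in R 4.3.3 with edgeR 4.0.16 (robust quasi-likelihood F test), with Benjamini-Hochberg adjustment over 17913 genes and calls at 0.05. Each SE was derived from the estimate and its F value. P-values weigh the genotype difference against the spread within genotypes among these 8 animals. A count of 0 allows up to 3 counts, 0.0333 to 0.0511 CPM by library, for counting error only. Replicate pairs differed by more than sampling noise (chi-square per degree of freedom 7.42 to 25). The edgeR step was tested on simulated data.

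The members and lists were chosen with earlier results of these data known. Named besides the 10 are up to 4 genes of each list that passed, or else the 2 with the lowest p and a mean of at least 1 CPM. Of the listed genes, Pde2a had no row matched by symbol. Alternatives were other scalings, filters and tests (DESeq2 1.42.0 among them), omission of each library, a replicate block, odd-numbered or even-numbered libraries alone, and marker scores as covariates; leaving out WT libraries 1 and 3 together was added after seeing the data.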

Additional observations from a re-analysis of the deposited data

Results flagged for a closer look

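Of 66 groups of 4 libraries checked, 2 had a library far from the other 3, where chance gives about 1 in 20. Prkacb was at 378 CPM in WT library 4, where the other WT libraries lay between 329.8 and 337 CPM. Gnaz was at 76 CPM in heterozygote library 3, where the other heterozygote libraries lay between 80.6 and 81 CPM.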

How the results depend on the processing

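Over 20 alternatives, 189 fitted values of the 10 genes moved by less than the spread within genotypes and 11 by more, 7 of them with spike-in scaling. With spike-in scaling Adcy5 was at 0.28, and with the striatal score Rapgef3 was at -0.36 and Adcy2 at 0.0040. Over all genes 535 were called by edgeR, 1188 with the DESeq2 Wald test, 1296 with spike-in scaling (1282 higher, 14 lower), 78 among even-numbered libraries, 170 without WT libraries 1 and 3, 1 with the choroid plexus or the striatal score, and 0 with the ependymal score, where 893 had an unadjusted edgeR p under 0.05. Without 1 library the count ran from 171 (without WT library 3) to 767, and it was 321, 315 and 281 without heterozygote library 1, 3 or 4 and 222 without WT library 1. Of the 118 pathway genes 4 were called, 7 with the DESeq2 Wald test, 2 with the replicate block, 5 with spike-in scaling (5 higher, 0 lower; Pkia and Akap7 lost, Adcy6 and Gnai2 gained), 1 among odd-numbered libraries, 1 without WT libraries 1 and 3, and 0 among even-numbered libraries or with any marker score, where the edgeR counts at an unadjusted p under 0.05 were 11 and, for choroid plexus, ependymal and striatal scores, 14, 3 and 10. Without 1 library that count ran from 1 to 5, with 2 without heterozygote library 1 or 2 and 1 without WT library 1 or 3. Of the 10 genes, 1 was called, 2 with the DESeq2 Wald test (Rapgef4 and Adcy5), and 0 to 1 without 1 library. None was called with the replicate block, within odd-numbered or even-numbered libraries, with any score or without WT libraries 1 and 3 (0 each by edgeR, with 0 to 3 at an unadjusted p under 0.05). Without heterozygote library 1, and with spike-in scaling, the 1 called was Adcy5. Since the 10 were chosen with their values in these libraries known, nothing is read from any of these calls of the 10 genes. Signs turned for Pde4a (0), Hcn2 (0.016) and Camk4 (0.038) with spike-in scaling, for Pde3b (0.011), Camk4 (0.033) and Sik1 (-0.039) with the ependymal score, for Hcn2 (0.020) and Sik1 (-0.098) with the striatal score and for Sik1 (-0.021) with the choroid plexus score, all on the log2 scale and none called. Spike-in scaling moved the median of all genes to 0.091, against -0.0056 with TMM, and the turns under it are of that size. Which of these scalings is nearer the true levels was not tested, nor was the cause of the turns with marker scores. Same-numbered libraries did not deviate together (correlations of -0.093 to 0.027 across genes), so the replicate block pairs nothing that the labels state; with it 406 genes were called.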

Other observations

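Of the Gs-coupled receptor genes, Adora2a, the adenosine receptor gene of striatal neurons, is given here because of its values. It had 1.56, 2.53, 2.65 and 5.06 CPM in heterozygote libraries and 1.28, 1.03, 0.877 and 1.12 CPM in WT libraries. Adora2a did not pass (log2 fold change 1.49 ± 0.355 SE, edgeR adjusted p = 0.0621). The dopamine receptor gene Drd1, chosen in the same way, was at 9.59 CPM on average in heterozygotes and 8.71 CPM in WT (edgeR adjusted p = 0.522). Gnal, the stimulatory G protein gene of the striatum, likewise chosen on its values, had 122.6, 129.8, 146.2 and 145.4 CPM in heterozygote libraries 1 to 4 and 134.7, 130.6, 127.2 and 122.2 CPM in WT libraries 1 to 4 (edgeR adjusted p = 0.509). In heterozygotes Gnal was highest in libraries 3 and 4, as Adcy5 and the striatal score were. Akap14, an anchoring protein gene of motile cilia chosen on its values, averaged 0.388 CPM in heterozygotes and 0.149 CPM in WT (edgeR adjusted p = 0.0715), beside 6 ependymal markers with summed levels of 29.8 to 45.3 CPM in heterozygotes and 10.4 to 20.7 CPM in WT. The part of these markers in the values was not tested.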
